A study of Arabidopsis thaliana with 6 samples.

Results

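Splice junctions that were covered by sequencing reads but assigned to no gene in the deposited junction table were described in a prmt5 mutant and in wild type Arabidopsis thaliana. They were selected on their reads, as the junctions with no gene hit and at least 30 reads summed over the 6 libraries, which gave 753 of the 7114 junctions with no gene hit and of the 173425 junctions in the whole table. The prmt5 mutant and wild type, both of the Col-0 ecotype, had 3 libraries each of polyadenylated RNA from whole 15-day-old plants. Both groups had been stratified for 4 days in the dark and then kept at 22 °C in continuous white light. The labels give no allele for the mutant, and they do not say whether the 3 libraries of a group came from separate cultures, so p-values measure the spread between these libraries, which may be technical. The rule used the reads of both genotypes together and not the difference between them, so the number of reads is a description and the genotype comparison was tested. Just inside the threshold, 97 junctions had 30 to 34 reads, with a median of 0.266 reads per 1000000 junction reads (CPM) in the mutant and 0.337 CPM in wild type. Just outside it, 108 junctions had 25 to 29 reads, with a median of 0.257 CPM in the mutant and 0.240 CPM in wild type.

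An intron is cut out between a donor site at its 5′ end, which in most plant introns begins with GT, and an acceptor site at its 3′ end, which ends with AG. PRMT5 is a protein arginine methyltransferase that places symmetric dimethyl marks on, among others, the Sm proteins of the spliceosome, and plants without it are known for changed splice site use, late flowering and an altered circadian clock. A junction can fall outside the genes of an annotation because the gene is not in that annotation, because the annotated gene is shorter than its transcript, or because the junction joins neighbouring genes.

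Donor windows below hold 10 exonic and 20 intronic bases, and acceptor windows 20 intronic and 10 exonic bases, on the strand on which the ends read as GT and AG. The capitals mark these GT and AG ends. Sequences are from the RefSeq TAIR10.1 genome, on which 98.9% of the annotated junctions of the deposited table had GT and AG ends. The first set belongs to the most read junction, chr1:4662980-4663361 on the minus strand, and to a junction with the same acceptor and another donor, chr1:4662980-4663376. Their acceptor lay inside the defensin-like gene AT1G13609, which is on the plus strand, and their donors lay outside it. They are called junctions of AT1G13609 here by position only, as their ends read on its opposite strand. The second set belongs to chr3:2806944-2807846 on the minus strand, which joined AT3G09160 and AT3G09162 and had the smallest p among junctions that rose. The third set belongs to chr1:6819314-6819897 on the minus strand, which joined AT1G19715 and AT1G19720 and had the smallest p in the test of splice site choice. The fourth set belongs to 2 donors with 1 acceptor, chr3:9665720-9665951 and chr3:9665796-9665951 on the plus strand, inside the reference gene AT3G26395.
AT1G13609 donor, 382-base intron: tctcacattgGTtcgtgtgcttttaatttt
AT1G13609 donor, 397-base intron: aaaagatgacGTaaatctcacattggttcg
AT1G13609 shared acceptor: cttccccatttcctctgcAGactctgaaac
AT3G09160 and AT3G09162, donor: tttgattcagGTgcgtcgaaatgttgttgt
AT3G09160 and AT3G09162, acceptor: accgtaaaatatctcttaAGggttatcgcc
AT1G19715 and AT1G19720, donor: aaccactaagGTacgacttaacttaatttc
AT1G19715 and AT1G19720, acceptor: acttgatcttgtttctgcAGagtgttgaag
AT3G26395, donor of the 232-base intron: cttctgcccgGTatctttcagctttgatag
AT3G26395, donor of the 156-base intron: ttttggccggGTttttatcttttctcgccg
AT3G26395, shared acceptor: ttggaaacctcgatttgcAGgaaatctatc

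The last set shows junctions between gene copies, in which the 30 bases around the left end and the 30 bases around the right end are nearly the same. They are written on the plus strand, with the GT after the left end and the AG before the right end in capitals. The first pair comes from chr1:10472518-10475163, between the light-harvesting genes CAB3 (AT1G29910) and LHCB1.1 (AT1G29920), where 30 of 30 bases were the same. The second pair comes from chr5:15381628-15384805, between the Rubisco small subunit genes RBCS2B (AT5G38420) and RBCS1B (AT5G38430), where 29 of 30 were the same. All of these genes lie on the minus strand, so the GT and AG shown read on the strand opposite to the genes. Ends on the gene strand were found in 6 of the 10 junctions between CAB3 and LHCB1.1. Between RBCS2B and RBCS1B they were found in 7 of 10.
CAB3, around the left end: caaatggtcagcaagGTtctctatcggtcc
LHCB1.1, around the right end: caaatggtcagcaAGgttctctatcggtcc
RBCS2B, around the left end: cttgttgcggagaagGTagtcaacttcctt
RBCS1B, around the right end: tttgttgcggagaAGgtagtcaacttcctt

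Junction reads numbered 16200740, 19173454 and 15334879 in mutant replicates 1, 2 and 3, and 15765765, 26480072 and 13167696 in wild type replicates 1, 2 and 3. Reads spliced over the PRMT5 intron at chr4:15132630-15132724 numbered 20, 16 and 18 in the mutant libraries and 165, 226 and 93 in the wild type libraries. A junction with the same acceptor and another donor, chr4:15132630-15132731, had 28, 48 and 31 reads in the mutant libraries and 0, 0 and 0 in the wild type libraries. The gene itself, AT4G31120, had more reads in the mutant (log2 change 0.81 ± 0.10, SE; edgeR adjusted p = 1.10e-04). Leaf and root marker genes had reads in all 6 libraries, and the flower genes AP3 and AG had at most 14. Read density along genes differed between libraries, with a median log2 ratio of 3′ over 5′ density of 0.70, 0.77 and 1.27 in mutant replicates 1, 2 and 3 and of 1.67, 1.21 and 1.28 in wild type replicates 1, 2 and 3. Wild type replicate 1 had the highest ratio of all libraries and mutant replicates 1 and 2 the lowest.

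The name of the table's class did not describe all 753 junctions. Set against the 33602 genes of the deposited gene table, 396 lay wholly within a gap between genes. A further 226 had 1 end inside a gene and the other outside it, 112 had their ends in 2 different genes, and 19 had both ends in gaps with at least 1 whole gene in between. The junctions formed 492 loci when those that overlapped, shared an end or lay within 1000 bases were joined, and 362 loci held a single junction. They lay on all 5 chromosomes, with 29% on chromosome 1, which held 26.7% of the junctions with a gene hit, and 12.4% on chromosome 2, which held 15.0%. In every case the ends named a strand, 400 minus and 353 plus.

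By their end bases, the junctions as a whole resembled those with a gene hit. GT and AG bounded 745 of the 753, or 98.9%, which was also the share among the 101133 junctions with a gene hit and as many reads. GC and AG bounded 7, and AT and AC, the ends of a minor class of introns, bounded 1. The 5′ splice site score, which sums how usual the 9 bases around a donor are, had a median of 7.34, against 7.18 for junctions with a gene hit. Junctions between 2 genes stood lower, at 5.40, and those of the 2 loci of gene copies described below at 3.81.

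Many of the junctions were introns of a later annotation. In the TAIR10.1 RefSeq annotation 439 of the 753 were introns with both ends exact, 11 joined 2 annotated ends in another way, 44 had 1 annotated end and 259 had none. Of the 439, 122 lay in a 5′ UTR, 137 in a 3′ UTR, 104 in coding sequence and 76 in non-coding transcripts. Exact introns made up 277 of the 396 junctions within a gap. Of all 753, 371 lay inside a same-strand reference gene that the deposited table also lists, 130 lay inside 79 reference genes that it does not list, and 252 lay inside none. The 130 comprised 78 in protein-coding genes, 31 in transcripts listed as miscellaneous RNA, 20 in long non-coding RNAs and 1 in both a protein-coding and a long non-coding gene.

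Gap junctions lay close to genes. The median distance to the nearest deposited gene was 222 bases, with a range of 1 to 4549, and 192 of 396 were within 200 bases while 55 were over 1000 bases away. The nearest gene lay on the same strand for 308 of them, which were 167 upstream and 141 downstream of it, and on the opposite strand for 84. The farther ones included chr3:12559693-12559814, one of the 6 most read junctions, which lay 2197 bases from the pseudogene AT3G30834 in no reference gene. It had 172, 199 and 200 reads in the mutant libraries and 213, 243 and 132 in the wild type libraries, and its CPM overlapped between the groups.

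Introns were longer than those of genes. The median length was 268 bases, from 65 to 4966, against 101 bases for junctions with a gene hit. It was 167 bases within gaps, 330 bases with 1 end in a gene, 2280 bases between 2 genes and 799 bases with a gene inside. Introns over 1000 bases made up 14.5% of the junctions and 0.544% of those with a gene hit, and 68 of these 109 long ones joined 2 genes. The longest intron in the whole table was 4998 bases.

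**Figure D1:**
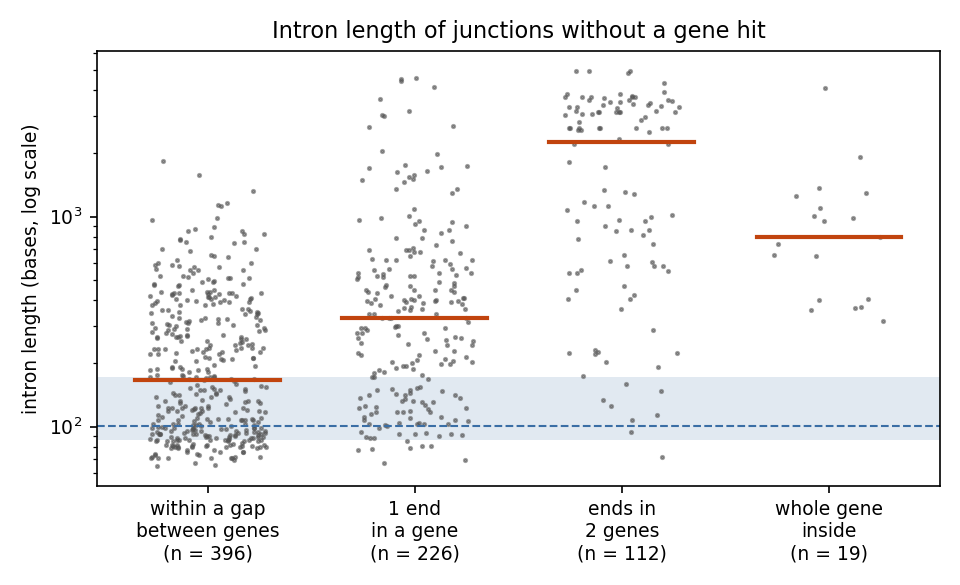
Intron length in bases (log scale) of each junction without a gene hit, by position relative to the deposited genes. Each point is a junction, the bar is the median of its class, and the dashed line and band are the median (101 bases) and quartiles of junctions with a gene hit; junctions between 2 genes, with a median of 2280 bases, lie above the other classes.

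The 3 longest introns each joined 2 genes. The longest, of 4966 bases at chr4:7887619-7892584, joined AT4G13572 and AT4G13575 and had 9, 13 and 24 reads in the mutant libraries against 37, 99 and 58 in the wild type libraries. Every mutant library was below every wild type library (log2 change -2.09 ± 0.38, SE; edgeR adjusted p = 1.82e-04), and both genes were themselves lower in the mutant, each by a log2 change of -1.74. The next, of 4964 bases, joined AT1G62914 and RPF3 (AT1G62930), which encode pentatricopeptide repeat proteins of the kind that bind organelle RNA. It had 9, 2 and 10 reads in the mutant libraries and 6, 4 and 7 in the wild type libraries, with overlap. The third, of 4920 bases, joined CAB3 and CAB1 with 4, 4 and 0 reads in the mutant against 5, 14 and 6 in wild type, where CPM did not overlap but the test was not passed (edgeR adjusted p = 0.191). The 3 shortest, of 65, 66 and 67 bases, lay in or beside AT3G30730, the disease resistance gene AT5G40910 and the receptor-like kinase gene CRK19, with none past the test. Without mutant replicate 3, which held 6 of its reads, the value for the CRK19 junction was -4.08 on the log2 scale (edgeR adjusted p = 0.0187).

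Levels were low apart from a few junctions. Reads of the 753 made up 0.10%, 0.125% and 0.126% of junction reads in mutant replicates 1, 2 and 3, and 0.0952%, 0.0762% and 0.0738% in wild type replicates 1, 2 and 3. The median junction had 0.617, 0.678 and 0.587 CPM in the mutant libraries and 0.698, 0.604 and 0.608 CPM in the wild type libraries, so that medians of the groups overlapped although their summed shares did not. Of the 753, 234 had at least 100 reads and 612 had reads in every library. The 6 most read held 28% of all 104441 reads, and the 2 junctions of AT1G13609 shown above held 21.4%.

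AT1G13609, which encodes a small secreted protein of the defensin-like family, stood out in level. Its most read junction had 3965, 8333 and 6743 reads in mutant replicates 1, 2 and 3, or 245, 435 and 439.7 CPM, against 1348, 532 and 274 reads in wild type replicates 1, 2 and 3, or 85.5, 20.1 and 20.8 CPM. All mutant libraries were above all wild type libraries, and wild type replicate 1 was the highest of its group. The log2 change of 2.96 ± 0.79 (SE) did not pass the edgeR test (adjusted p = 0.0823); without wild type replicate 1 it was 4.01 (adjusted p = 3.86e-10), and scaled by the reads of the gene table it was 3.26 (adjusted p = 0.0442). DESeq2 called it at an adjusted p of 0.00102. The junction with the second donor had 154, 437 and 348 reads in the mutant libraries and 118, 40 and 21 reads in the wild type libraries (log2 change 2.23 ± 0.82, SE; edgeR adjusted p = 0.164). Leaving out wild type replicate 1 gave 3.39 for it (adjusted p = 4.55e-05). Of 2 further junctions with the donor of the most read one, that of 129 reads had a log2 change of 1.84 ± 0.50 that passed the test although the groups overlapped (edgeR adjusted p = 0.0111), and that of 63 reads had one of 1.58 that did not (adjusted p = 0.122).

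The gene followed the same order, with 42744, 84858 and 69461 reads in the mutant libraries and 9075, 3129 and 1790 reads in the wild type libraries (log2 change 3.92 ± 0.75, SE; edgeR adjusted p = 0.0176). Per 100 reads of the gene, the most read junction had 9.28, 9.82 and 9.71 reads in the mutant libraries and 14.9, 17 and 15.3 in the wild type libraries, so the groups did not overlap and the mutant was lower by this measure. The intron's ends read as GT and AG on the minus strand, while AT1G13609 lies on the plus strand, and the outer end of the intron lay 469 bases before AT1G13610. The sources used here do not say whether strand was used in counting, so reads of the gene and of an RNA from its opposite strand cannot be told apart. Defensin-like genes form a large family, and the handling of reads shared between its members is likewise not given.

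Summed over all 753 junctions, the mutant libraries held 1005, 1247 and 1262 CPM and the wild type libraries 952, 762 and 738 CPM. The groups did not overlap, with a ratio of means of 1.43 (exact two-sided permutation p = 0.1, the smallest that 3 against 3 libraries allow). With TMM scaling, as in the tests, they overlapped, from 950.4 to 1217 in the mutant and from 789.8 to 1020 in wild type, with a ratio of 1.26 (exact permutation p = 0.2). Without the 2 junctions of AT1G13609 the sums were 750.3, 789 and 799 CPM in the mutant and 859, 741 and 715 CPM in wild type, with a ratio of 1.01 (exact permutation p = 0.9). Without the 6 most read junctions the ratio was 1.03 (exact permutation p = 0.6). With these 2 junctions left out, no difference in the summed level was detectable between the genotypes.

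Sums by position went different ways. Junctions between 2 genes held 75.2, 78.3 and 83.9 CPM in the mutant libraries and 113, 119 and 108 CPM in the wild type libraries, with no overlap. Those with a whole gene inside held 21.4, 23.2 and 24.5 CPM in the mutant libraries and 16.5, 16.2 and 14.9 CPM in the wild type libraries, again with no overlap but with the mutant higher. This class includes junctions of the 2 tRNA loci described below. The locus there without a reference transcript, with 1 junction that ends in a gene, summed to 7.65, 8.29 and 8.93 CPM in the mutant libraries. In the wild type libraries it summed to 3.68, 5.25 and 4.03 CPM. Gap junctions held 433, 452 and 444 CPM in the mutant and 469, 386 and 371 CPM in wild type, and wild type replicate 1 was above all mutant libraries. Those with 1 end in a gene held 475, 693 and 709 CPM in the mutant and 354, 241 and 243 CPM in wild type, with no overlap and a ratio of 2.24, and without the 2 junctions of AT1G13609 they held 220.4, 236 and 247 CPM in the mutant and 261, 219 and 221 CPM in wild type, with overlap and a ratio of 1.00.

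**Figure D2:**
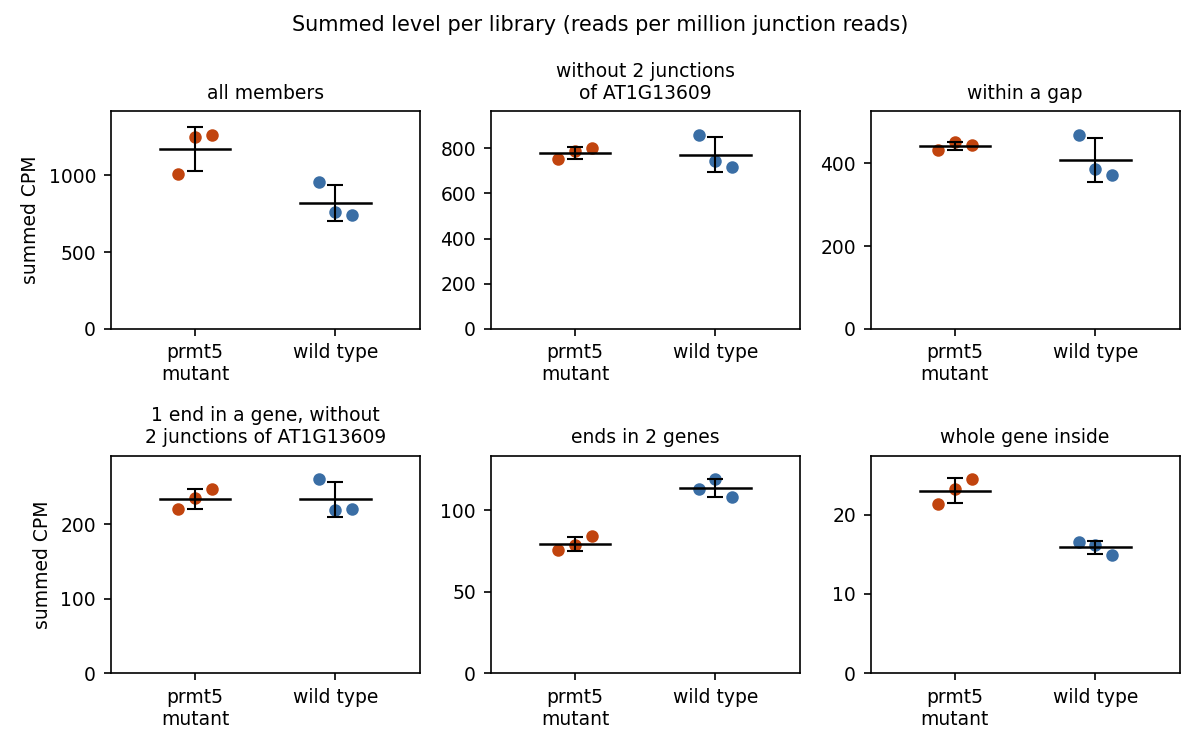
Summed reads per 1000000 junction reads in each library, for all 753 junctions and for subsets by position; points are libraries, bars the mean and error bars the SD (n = 3 per group). The groups are apart for all junctions, for those between 2 genes and for those with a whole gene inside, and the sums of all junctions overlap once 2 junctions of AT1G13609 are left out.

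Of the 753 junctions, 36 rose and 77 fell in the mutant (edgeR, quasi-likelihood, adjusted p under 0.05), or 15.0%, against 17.1% of all 101886 junctions tested. By direction, 4.78% rose against 9.01% of all junctions tested, and 10.2% fell against 8.06%. The median log2 change was -0.23, against -0.01 over all junctions tested. Scaling by library totals alone or by the gene table moved the median over all junctions to 0.17 and 0.22, and that of the 753 to -0.05 and 0.00; in each case the 753 stood 0.22 below. CPM values here are per library total, so they stand higher in the mutant than the log2 changes by about that shift. With at least 100 reads 22.6% of these junctions were called and 19.0% of those with a gene hit, and with 30 to 99 reads 11.6% were called and 7.16% of those with a gene hit. Scaling by library totals called 46 that rose and 61 that fell, and scaling by the gene table called 48 and 53. The number that fell was 51 without mutant replicate 1 and 50 without mutant replicate 2. CPM did not overlap between the groups for 97 junctions higher in the mutant, or 12.9% against 23.5% of all, and for 124 lower, or 16.5% against 10.3%.

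By position, 22 gap junctions rose and 24 fell, or 5.56% and 6.06%, and the number that fell was 13 without mutant replicate 1. Their median log2 change was -0.08, which turned to 0.10 under scaling by library totals and 0.16 under scaling by the gene table. Of those with 1 end in a gene 8 rose and 25 fell, or 3.54% and 11.1%, with a median of -0.38; without mutant replicate 2, 5 rose and 12 fell, without wild type replicate 1, 14 rose and 15 fell, and 16 fell without mutant replicate 1. Of those between 2 genes 5 rose and 28 fell, or 4.46% and 25%, with a median of -0.85, and without any 1 of the 6 libraries 1 to 3 rose and 20 to 29 fell. Of the 19 with a gene inside, 1 rose and 0 fell by the edgeR test at the adjusted threshold, with a median of 0.50.

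Calls were also counted by the part of the reference gene in which an intron lay. Of the 122 reference 5′ UTR introns 15 rose and 4 fell, or 12.3% and 3.28%, against 7.50% and 3.89% of 5′ UTR introns with a gene hit, and their median log2 change was 0.40. Of the 137 reference 3′ UTR introns 2 rose and 14 fell, or 1.46% and 10.2%, against 1.67% and 33.5% of 3′ UTR introns with a gene hit, and their median was -0.46. Of the 104 coding introns 8 rose and 6 fell, or 7.69% and 5.77%, against 9.23% and 7.92% of coding introns with a gene hit. Of the 76 non-coding introns 1 rose and 2 fell, or 1.32% and 2.63%, against 2.43% and 11.8% of non-coding introns with a gene hit. Median log2 changes were -0.16 for the coding and -0.01 for the non-coding introns. Scaled by library totals these medians were 0.02 and 0.17. Junctions with a gene hit in the same parts had medians of 0.12 over 3960 5′ UTR introns and of -0.57 over 1079 3′ UTR introns. Over 92440 coding and 576 non-coding introns with a gene hit the medians were -0.0 and -0.30.

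The ratio of 3′ over 5′ read density given above overlapped between the groups, mutant replicate 3 lying above wild type replicate 2. With that ratio as a covariate in the edgeR fit, 5 of the 5′ UTR introns rose and 2 fell, with a median of 0.01, and 2 of the 3′ UTR introns rose and 1 fell, with a median of 0.04. Over the 753 junctions the covariate left 14 that rose and 24 that fell, against 4.78% and 3.25% of all junctions tested, 8.03% together; 13 of the 36 and 20 of the 77 were called in both fits. Between 2 genes the covariate left 1 that rose and 12 that fell, with a median of -0.87. Of gap junctions it left 8 and 10, with a median of 0.07, and of those with 1 end in a gene 5 that rose and 2 that fell, with a median of -0.25, while the 1 call with a gene inside was lost. Without wild type replicate 1, mutant replicate 1 or mutant replicate 2, 7 of the 3′ UTR introns fell, and without mutant replicate 2, 8 of the 5′ UTR introns rose.

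**Figure D3:**
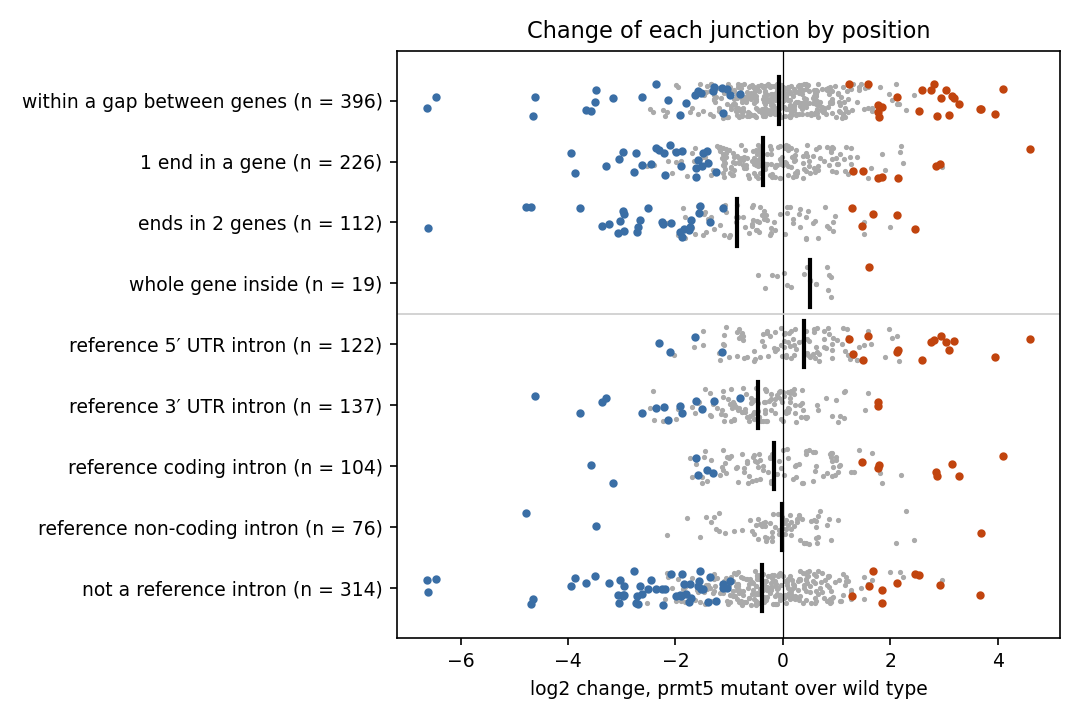
Log2 change (prmt5 mutant over wild type, edgeR) of every junction without a gene hit, by position relative to the deposited genes (upper 4 classes) and by its place in the reference annotation (lower 5 classes). Orange points rose and blue points fell at an adjusted p under 0.05, grey points did not pass, and black bars are class medians; the median is -0.85 between 2 genes, 0.40 in 5′ UTRs and -0.46 in 3′ UTRs.

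Among the junctions that rose, 4 of the 6 named by smallest p were introns of 5′ UTRs that lay before the deposited start of their gene or reached past it. The 5′ UTR intron of PRP40B (AT3G19670), a relative of the yeast splicing factor Prp40 that binds the U1 particle, lay at chr3:6836697-6837273, 114 bases upstream of the deposited gene. It had 59, 88 and 38 reads in the mutant libraries and 7, 8 and 7 reads in the wild type libraries, all mutant values being above all wild type values. Its log2 change was 2.94 ± 0.40 (SE; edgeR adjusted p = 3.74e-06). PRP40B itself rose by 2.48, and relative to the reads of the gene the intron's log2 change was 0.71 (edgeR adjusted p = 0.428).

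The 5′ UTR intron of XIJ (AT3G58160), a class XI myosin that moves along actin, began before the deposited gene and ended 14 bases upstream of it. It had 44, 23 and 29 reads in the mutant libraries and 3, 8 and 3 reads in the wild type libraries (log2 change 2.75 ± 0.52, SE; edgeR adjusted p = 3.40e-04). The 5′ UTR intron of AT1G50140, a nucleoside triphosphate hydrolase family gene, had 82, 78 and 38 reads in the mutant against 18, 9 and 13 in wild type (log2 change 2.14 ± 0.39; edgeR adjusted p = 2.33e-04). That of AT5G44660, of unknown function, had 111, 127 and 127 reads in the mutant against 42, 78 and 27 in wild type (log2 change 1.30 ± 0.24; edgeR adjusted p = 2.43e-04). In these 3 as in PRP40B the groups were apart in CPM, the genes rose as well, by 1.81, 1.26 and 1.01, and none passed the test relative to its gene (edgeR adjusted p = 0.272, 0.120 and 0.246).

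The other 2 of the 6 were not in a 5′ UTR. The junction between AT3G09160, which encodes a protein with an RNA recognition motif, and AT3G09162 had 98, 166 and 119 reads in the mutant libraries and 10, 38 and 20 reads in the wild type libraries. Mutant values of 6.05 to 8.66 CPM lay above wild type values of 0.634 to 1.52 CPM (log2 change 2.45 ± 0.29, SE; edgeR adjusted p = 3.42e-07). Both genes, which lie on the same strand, rose by 2.07 and 1.98. A coding intron of AT4G16857, a gene of the TIR-NBS-LRR class of immune receptors that the deposited table does not list, had 135, 130 and 130 reads in the mutant against 45, 47 and 18 in wild type (log2 change 1.79 ± 0.26; edgeR adjusted p = 1.16e-05).

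Of the 6 named junctions that fell, 4 joined 2 genes. One joined AT5G24350, which encodes a protein with a Sec39 domain of the secretory pathway, and AT5G24352, annotated as related to WNK kinases, at chr5:8310811-8311033. It had 22, 28 and 36 reads in the mutant libraries and 88, 132 and 58 in the wild type libraries, with all mutant CPM below all wild type CPM (log2 change -1.72 ± 0.28, SE; edgeR adjusted p = 6.09e-05). The log2 change of AT5G24350 itself was 0.11 and did not pass the test (edgeR adjusted p = 0.628), while AT5G24352 fell by 0.59.

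A pair joined genes that face each other. Between AT3G52105 and AT3G52110 the mutant libraries had 2, 13 and 6 reads and the wild type libraries 33, 73 and 29 (log2 change -2.70 ± 0.46, SE; edgeR adjusted p = 8.15e-05), and both genes fell, by 0.50 and 0.97. Between AT2G41670, which encodes SIN2, a mitochondrial GTPase needed for ovule integuments, and NTRC (AT2G41680), a chloroplast thioredoxin reductase that uses NADPH, the mutant libraries had 0, 2 and 0 reads and the wild type libraries 17, 25 and 15. The ratio of mutant over wild type reads per 1000000 was 0.0383, with an exact 95% interval of 0.00453 to 0.145 that covers counting error only (edgeR adjusted p = 2.76e-04). The log2 changes of the 2 genes were 0.01 and 0.04 and did not pass the test.

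The other junctions that fell lay in the LHCB1 locus described below, opposite AT3G63380, a P-type ATPase gene, and near AT4G13572. Opposite AT3G63380 the mutant libraries had 6, 4 and 0 reads and the wild type libraries 29, 33 and 18 (log2 change -3.05 ± 0.62, SE; edgeR adjusted p = 7.79e-04). At chr4:7887197-7887298, 141 bases from AT4G13572 and on its opposite strand, there were 29, 37 and 44 reads in the mutant and 72, 205 and 64 in wild type (log2 change -1.58 ± 0.27; edgeR adjusted p = 1.20e-04). In this junction and in the longest intron, which has an end in AT4G13572, all mutant values were below all wild type values.

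**Figure D4:**
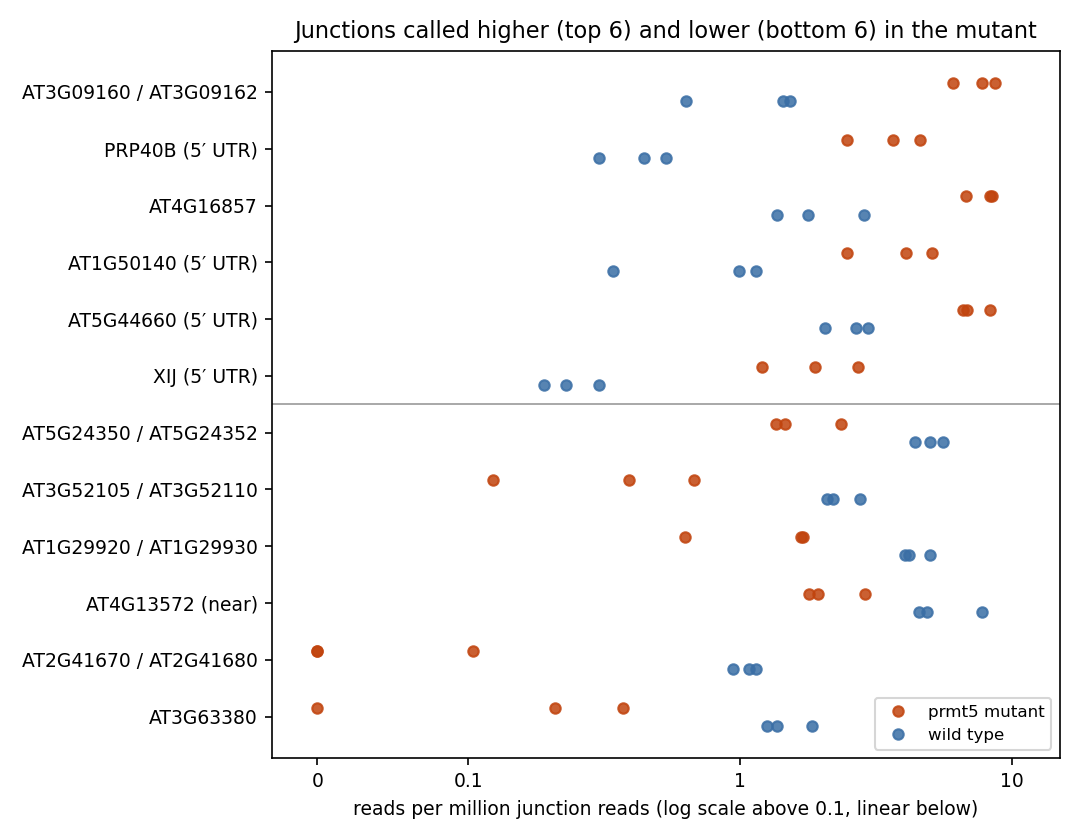
Reads per 1000000 junction reads in each library (log scale above 0.1, linear below) of the 6 junctions named that rose (upper 6 genes or pairs) and the 6 that fell (lower 6) in the prmt5 mutant, labelled by the genes they join or lie in; points are libraries. In each of the 12 the 3 mutant and 3 wild type libraries are apart, which the naming rule required.

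In 3 junctions no mutant library had a read, and in none was this so for wild type. The first joined AT5G14090 and AT5G14100 and held 4, 17 and 14 reads in the 3 wild type libraries. The second, at chr5:17732902-17733234 inside the reference gene AT5G44063, had 11, 10 and 9. With a floor of 3 reads over the mutant group they were at least 10.7-fold and 9.15-fold lower in the mutant. The third is the AT3G26395 junction described under splice site choice. All 3 reached the threshold of 30 reads through wild type reads alone, so their lower level in the mutant is given as a description, though they are counted among the junctions that fell. Other called junctions had at most 3 reads in 1 group and came near or past the threshold through the other group. Those named in the text, between AT2G41670 and NTRC and in the 5′ UTRs of SULTR1;2 and emb2411, are descriptions in the same way.

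Of the 112 junctions between 2 genes, 42 lay in 2 loci of photosynthesis genes. The LHCB1 locus on chromosome 1 held 22 junctions among CAB3, LHCB1.1 and CAB1 (AT1G29930), which encode chlorophyll-binding proteins of the photosystem II antenna. The RBCS locus on chromosome 5 held 21 junctions at RBCS3B (AT5G38410), RBCS2B and RBCS1B, which encode the small subunit of Rubisco. Of the 21, 1 had its right end in RBCS1B and its left end in no gene, and the others joined 2 of the genes. No junction of either locus was an intron of the reference. Several had the same length, with 7 of 2646 bases in the LHCB1 locus and 6 of 3148 and 5 of 3703 bases in the RBCS locus.

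In the LHCB1 locus 9 junctions fell and 0 rose, and in the RBCS locus 6 fell and 0 rose, at the adjusted threshold in edgeR. The LHCB1 junctions summed to 14.3, 11.5 and 17.7 CPM in the mutant libraries and 35.5, 34.7 and 28.6 CPM in the wild type libraries. The RBCS junctions summed to 13.4, 12.4 and 12.5 CPM in the mutant libraries and 23.8, 24.7 and 19.0 CPM in the wild type libraries. The groups did not overlap in either locus. With any 1 library left out, 6 to 10 LHCB1 junctions and 3 to 6 RBCS junctions fell and 0 rose; 3 RBCS junctions fell without wild type replicate 1 or 2, and 6 LHCB1 junctions without mutant replicate 1 or 2. With the density covariate 2 LHCB1 and 1 RBCS junctions fell.

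The junction with the smallest p in these loci lay at chr1:10475425-10478517 between LHCB1.1 and CAB1. It had 27, 12 and 26 reads in the mutant libraries and 79, 107 and 55 in the wild type libraries, with no overlap in CPM (log2 change -1.92 ± 0.33, SE; edgeR adjusted p = 9.61e-05). The genes fell as well, CAB3 by 0.60, LHCB1.1 by 1.55, CAB1 by 1.28, RBCS3B by 0.83 and RBCS2B by 0.66, while the log2 change of RBCS1B was -0.33 (edgeR adjusted p = 0.0851). Fewer cells of a type and less RNA per cell cannot be told apart in such bulk samples.

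Per 1000000 reads of their 3 genes, the LHCB1 junctions had 584, 642 and 770.5 reads in the mutant libraries and 687, 649 and 579.6 in the wild type libraries. The RBCS junctions had 492, 417 and 389 in the mutant libraries and 501, 508 and 395 in the wild type libraries. By this measure the groups overlapped in both loci. The sources used here do not say how reads matching more than 1 of these near-identical genes were counted, so the split of reads among them is uncertain.

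The likeness of the ends shown in the sequences above was measured in all long junctions. The measure was chosen after these 2 loci had been seen. It asked whether the 20 exonic bases at each end had a same-strand match of at least 18 bases within 300 bases of the other end. It held for 36 of the 68 junctions between 2 genes with introns of at least 1000 bases and for 0 of 549 nuclear junctions with a gene hit of that length. Of the 36, 28 were among the 42 such junctions of the LHCB1 and RBCS loci, which prompted the measure, and 8 among the 26 of other loci. A reverse-strand match of this kind, counted apart, held for 14 of the 68 and for 0 of the 549. Of the 14, 11 were in the LHCB1 and RBCS loci and 3 in other loci. Of the 112 junctions between 2 genes, 53 joined genes of the same strand with ends that read on that strand, 11 joined such genes with ends that read on the other strand, 22 joined convergent and 20 divergent genes, and in 6 a strand was not known. Of the 22 convergent ones, 7 fell and 0 rose at the adjusted threshold in edgeR, with a median log2 change of -1.43.

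A pair of loci on chromosome 1 had introns that spanned tRNA genes. In one, 7 junctions with 882 reads were all introns of the reference long non-coding RNA AT1G28715, and they spanned 11 genes of proline tRNAs. In the other, just before it, 7 junctions with 670 reads were in no reference transcript and together spanned 8 tRNA genes. The first of them had an end in AT1G28710, a gene of a sugar transferase family. In both loci the ends read on the minus strand and the tRNA genes lie on the plus strand. Each tRNA gene lay inside an intron.

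**Figure D5:**
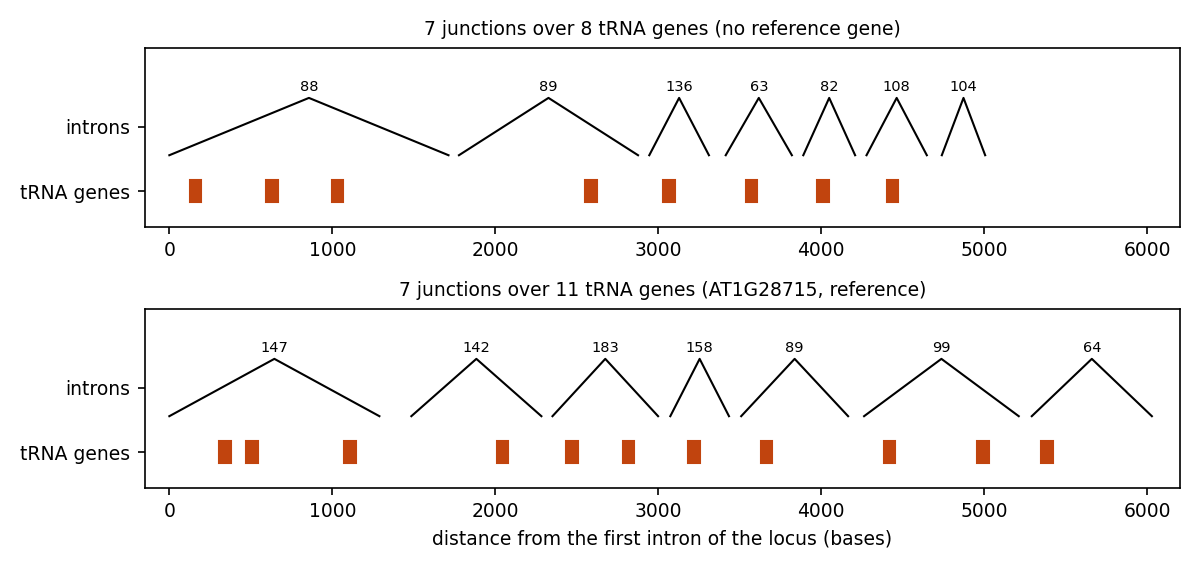
Maps of the 2 loci over tRNA genes, in bases from the first intron of each locus; peaked lines are introns with their reads summed over 6 libraries and boxes are tRNA genes of the deposited table. The 8 tRNA genes of the upper locus and the 11 of the lower locus all lie beneath an intron.

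Neither locus had a junction past the test. The one without a reference transcript had log2 changes of 0.45 to 1.26, with a smallest edgeR adjusted p of 0.0682. It summed to 7.65, 8.29 and 8.93 CPM in the mutant libraries and 3.68, 5.25 and 4.03 CPM in the wild type libraries, so the groups did not overlap. The AT1G28715 locus summed to 7.47, 9.49 and 10.4 CPM in the mutant libraries and 8.31, 7.52 and 6.83 CPM in the wild type libraries, with overlap, and its log2 changes ran from -0.47 to 0.86. AT1G28710 rose by 0.67 (edgeR adjusted p = 0.00743).

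A pair of other loci with many junctions also showed no call. On chromosome 5, 9 gap junctions between chr5:7611593 and 7614385 lay in the reference genes AT5G22794, AT5G22796 and AT5G22799, of unknown function, and the non-coding AT5G03515. They summed to 9.01, 9.28 and 8.61 CPM in the mutant libraries and 10.1, 7.97 and 7.44 CPM in the wild type libraries, with overlap. On chromosome 1, 7 gap junctions with introns of 77 to 477 bases followed each other on the plus strand, and 1 of them lay in the reference non-coding RNA AT1G06587. They summed to 5.18, 6.99 and 8.15 CPM in the mutant libraries and 4.19, 3.81 and 3.04 CPM in the wild type libraries, with every mutant library above every wild type library but no junction past the test.

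The remaining most read junctions did not pass the test. A junction from the ribosomal protein pseudogene AT1G80800 had 427, 484 and 501 reads in the mutant libraries and 390, 466 and 330 in the wild type libraries, with CPM apart between the groups (log2 change 0.15 ± 0.18, SE; edgeR adjusted p = 0.631). A 3′ UTR intron of AT4G02715 had 215, 370 and 300 in the mutant and 437, 387 and 189 in wild type, where wild type replicate 1 was highest of all, and its log2 change of -0.30 was 0.09 without that library. Junctions at the thaumatin-like defence gene AT5G24620 and in AT4G07455 had log2 changes of -0.36 and -0.38 (edgeR adjusted p = 0.179 and 0.206).

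Splice site choice was tested by setting each junction against the others that share an end with it, among all junctions of the table. Of the 146 junctions without a gene hit that could be tested, 4 were called, 3 of them with a higher share in the mutant, against 3.62% of all 8683 junctions tested this way. The junction between AT1G19715, of the mannose-binding lectin family, and AT1G19720, a pentatricopeptide repeat gene, used a donor and an acceptor that are both annotated but in different genes. It took 21.7%, 24.0% and 23.3% of the reads of its cluster in the mutant libraries and 5.91%, 3.89% and 10.1% in the wild type libraries, with no overlap (log2 change 1.31; edgeR diffSpliceDGE adjusted p = 5.01e-04). The genes' own levels did not pass the test, with log2 changes of 0.03 and 0.35. The junction was called in splice site choice with any library left out, and that test was not run with the density covariate. In level the junction rose by 1.28 (edgeR adjusted p = 0.0192). That call was lost without wild type replicate 2 (adjusted p = 0.114), without mutant replicate 1 or 2 (0.0547 and 0.0510) and with the density covariate (0.113).

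The other 3 rested on few reads. Those in AT3G26395 and SULTR1;2 passed the read threshold through the reads of 1 group alone. Their selection is tied to their difference, so their adjusted p-values do not test it apart from selection. Both are given as descriptions, though they are counted among the junctions called in splice site choice. In AT3G26395, whose nearest deposited gene is AT3G26400, a gene of translation initiation factor 4B, the donor of the 156-base intron had 0 reads in every mutant library and 14, 19 and 4 reads in the wild type libraries. The donor of the 232-base intron had 19, 13 and 15 reads in the mutant and 34, 27 and 24 in wild type. The first was at least 11.3-fold lower in the mutant with a floor of 3 reads over the group (edgeR diffSpliceDGE adjusted p = 0.0138), and the call was lost without wild type replicate 2 (adjusted p = 0.0570) or without mutant replicate 1, 2 or 3 (0.0838, 0.0662 and 0.0708).

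A 5′ UTR intron of the root sulfate transporter gene SULTR1;2 had 9, 24 and 2 reads in the mutant libraries and 0, 1 and 0 in the wild type libraries, with every mutant library above every wild type library. The ratio of mutant over wild type was 38.2, with an exact 95% interval of 6.43 to 1553 (edgeR diffSpliceDGE adjusted p = 0.0213; not called without wild type replicate 1, 2 or 3 or mutant replicate 2, at 0.0934, 0.0618, 0.116 and 0.140). A junction between AT5G58370, a gene for a GTP-binding protein, and AT5G58375 had 16, 3 and 26 reads in the mutant and 0, 9 and 3 in wild type, so the groups overlapped (adjusted p = 0.0455; not called without wild type replicate 1 or 3 or mutant replicate 1 or 3, at 0.286, 0.0943, 0.0828 and 0.481).

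In a fit added after the data had been seen, 416 junctions were tested relative to the reads of a deposited gene. That gene held the junction on its strand in the reference or, failing this, was a same-strand gene that held 1 of its ends. Of the 416, 2 were higher and 16 lower in the mutant, against 1.62% of all junctions called. Their median log2 change was -0.21, against 0.08 over all junctions tested this way. The 119 3′ UTR introns among them had a median of -0.59 with 0 higher and 11 lower by edgeR, and the 116 5′ UTR introns had a median of 0.51 with 2 higher and 1 lower. This fit held no term for the ratio of 3′ over 5′ read density, and its effect on these medians was not tested. The 2 that were higher lay in the 5′ UTRs of SULTR1;2 and of emb2411 (AT1G08840), a DNA helicase gene needed for embryos.

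In 5 of the 16 the gene rose while the junction itself did not pass the test. The smallest p was that of a 3′ UTR intron of AT2G30766, with a log2 change of -1.79 relative to the gene (edgeR adjusted p = 1.86e-06). It had 56, 110 and 93 reads in the mutant libraries and 109, 92 and 29 reads in the wild type libraries, with overlap, while the gene rose by 2.10. Both 3′ UTR introns named among these in AT5G02860, a pentatricopeptide repeat gene, and both in AT5G40910, of the TIR-NBS-LRR class, had log2 changes between -0.34 and -0.06 of their own with none past the test, and the genes rose by 1.19 and 1.13. Across the 416, junction and gene log2 changes had a Spearman correlation of 0.48, given as a description because both come from the same libraries.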

How the data were processed

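The deposited tables hold whole-number counts of reads per gene, exon bin, intron bin and junction, without normalization, per the file headers and the values. The submitters' processing notes name STAR and TAIR10; the sources used here give no annotation, junction counter, strand setting or handling of reads with several matches. Junctions, the list of marker genes, the naming rule and the tests were chosen with earlier results of these data known.

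Junction reads numbered 13167696 to 26480072 per library. Intron positions are the bases between the deposited junction ends. Every junction of the table with 30 or more reads over the 6 libraries (101886) entered a robust quasi-likelihood fit in edgeR (version 4.0.16, R 4.3.3) with TMM factors and genotype as the only term, followed by Benjamini-Hochberg adjustment over all of them, with calls under 0.05, so that all 753 junctions entered. Junctions that share an end were tested as clusters with diffSpliceDGE. CPM are reads per 1000000 junction reads of the library. Summed CPM were compared by exact two-sided permutation. The fit relative to the gene used the gene's count as an offset and needed a mean gene count of 20. The junction test and the test of splice site choice were tested on simulated data. Positions were checked on TAIR10.1, where 98.9% of annotated junctions had GT and AG ends. The 5′ splice site score sums log2 base frequency ratios over 3 exonic and 6 intronic bases. Strand was read from the ends.

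Named were the 6 most read junctions, up to 6 called in each direction by smallest p with groups apart (1 per locus), the 6 loci with most junctions, the 3 longest and 3 shortest introns and up to 4 called in splice site choice; AT5G14090, AT5G44063 and the junctions called relative to their gene were named after their values were seen. Alternatives were the replicate number as a block, each library left out, filterByExpr and no filter, other scalings, DESeq2 1.42.0, the covariate for 3′ over 5′ density (13965 genes), and subsets by reads and ends. Replicate numbers did not pair the libraries. Intervals and floors cover counting error only.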

Additional observations from a re-analysis of the deposited data

How the results depend on the processing

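The summed ratio of mutant over wild type stayed above 1 under the alternatives run, from 1.37 to 1.56 with 1 library left out and down to 1.01 without the 2 junctions of AT1G13609. With TMM scaling it was 1.26 and the groups overlapped (exact permutation p = 0.2). TMM scaling was not combined with leaving out the 2 junctions of AT1G13609, so the direction under both together was not tested. The number of junctions that rose, 36, was 14 with the density covariate, 2 relative to the gene (416 junctions tested) and 20 of those with at least 100 reads, and lay between 26 and 42 with 1 library left out. The number that fell, 77, was 24 with the covariate, 16 relative to the gene, 51 with filterByExpr, which kept 398 of the junctions, and 33 of those with at least 100 reads, and lay between 50 and 89 with 1 library left out. Fewer junctions entered under filterByExpr, relative to the gene and with at least 100 reads; for the covariate the cause was not tested. Calls of splice site choice numbered 2 to 3 with 1 library left out. Scaling by library totals gave 46 that rose and 61 that fell, scaling by the gene counts gave 48 and 53, against 36 and 77. With the replicate number as a block 35 rose, 65 fell and 3 were called in splice site choice, and the paired sign permutation of the summed level gave p = 0.25, the smallest it allows; same-numbered libraries deviated with correlations of -0.07, 0.09 and 0.03, so the numbers did not pair them. DESeq2 called 34 and 68. Log2 changes of 7 named junctions turned their sign, none of them called in either fit, and the cause was not tested: AT1G80800 to -0.04 (-0.01 to 0.25 with 1 library left out), AT5G24620 to 0.10 and the 66-base intron at AT5G40910 to -0.21 relative to the gene, AT4G02715 to 0.38 with the covariate and to 0.09 without wild type replicate 1 (-0.47 to 0.09 with 1 library left out), the chr3:12559693 junction to 0.31 with the covariate, 0.12 with gene table scaling and 0.06 with library totals (-0.26 to 0.07 with 1 library left out), the AT1G62914 to RPF3 junction between -0.26 and 0.70 with 1 library left out, and AT4G07455 to 0.12 with the covariate. Of the 16 named junctions called, 14 were called in every fit with 1 library left out, 14 with the covariate, 16 with the block and 16 by DESeq2. At 30 to 99 reads, depth limits which changes could pass the test.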
